A study of Homo sapiens with 11 samples.

Results

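Epidermal growth factor (EGF) was removed from the medium of hTert-HME1 cells, a telomerase-immortalised line of human breast epithelium, and the transcriptome of EGF-deprived cells was compared with that of cells kept in complete medium, all of them transfected with a control siRNA. The comparison used 5 of the series' 11 RNA-seq libraries: control-2 siRNA in complete medium (+EGF, replicates A, B and C) and control-2 siRNA in medium without EGF (-EGF, replicates A and C). Of 40460 Ensembl genes in the table, 17950 reached about 10 on the linear scale (a log2 value of about 3.3) in at least 2 of the 11 libraries and were tested. The other 6 libraries carried a BRCA2 siRNA, BRCA2-1, with EGF (3 libraries) or without it (3 libraries), and entered as the second withdrawal experiment. All cells were at passage 6 in Mammary Epithelial Growth Medium and were transfected with RNAiMAX, and ribosomal RNA was depleted before ScriptSeq v2 libraries were made. They stand for a single immortalised line and a single control siRNA, and how long EGF was withheld is not given in the sources used here.

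EGF binds the receptor EGFR, a member of the ErbB family, which dimerises and starts the RAS-ERK and PI3K-AKT cascades. ERK signalling induces early response genes, further ErbB ligands and its own inhibitors, and it drives entry into the cell cycle, while AKT keeps FOXO transcription factors out of the nucleus and mTORC1 favours ribosome and protein synthesis over lysosomal breakdown. Mammary epithelial cells and keratinocytes in culture depend on EGF or related ligands for proliferation and migration, and stratified epithelial cells that leave the cycle can switch to making keratins, desmosomes and the cornified envelope.

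The values were the authors' normalized log2 expression, and differences below are without EGF minus with EGF on that log2 scale, ± the moderated SE of limma (n = 3 with EGF, n = 2 without), with Benjamini-Hochberg adjusted p over the 17950 genes. Values in single libraries are given in the order A, B, C with EGF and A, C without. The labels call the libraries biological replicates but do not say that they came from separate cultures, so the p-values measure only the spread between these libraries. For every gene the mean of the 4 replicate A libraries equalled the mean of the 7 replicate B and C libraries, so the deposited values hold no average shift between A and the other letters. The step that set this is not given, and the degrees of freedom used here do not count it. The median absolute difference per gene was 0.11 between the pair of libraries without EGF, 0.15 to 0.29 among the 3 with EGF, and 0.38 to 0.49 between groups, with +EGF replicate C nearest to the libraries without EGF. The basal epithelial keratins KRT5 and KRT14 and the luminal KRT18 were present in all 5 libraries. Of 10 luminal markers 6 passed the expression filter, KRT8, KRT18, GATA3, ESR1, FOXA1 and MUC1, whereas KRT19, PGR, ELF5 and KIT did not. CD14 was the 1 leukocyte marker of the 5 in the table that passed, at 3.00 to 3.89 with EGF and 5.01 to 5.61 without, and PTPRC and the endothelial CDH5 were below it.

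EGF withdrawal changed 9123 of the 17950 genes tested, or 50.8%, at an adjusted p under 0.05. Of these, 4441 genes (24.7% of those tested) rose and 4682 (26.1%) fell. Counts called in the gene lists below are to be read beside these shares. Most lists hold protein-coding genes, and of the 12951 such genes tested 21.7% rose and 32.6% fell. The groups did not overlap in 11932 genes (66.5%), and 9093 of the genes called were among them. In 8374 of the genes called, the difference exceeded the range of the 3 libraries with EGF, whose median over genes was 0.35. Changes of 2-fold or more were more often rises, 1505 against 808 falls, and changes of 8-fold or more numbered 69 rises and 8 falls. Among the 11395 genes with a mean of about 100 or more on the linear scale, 33.4% of the calls were rises, against 48.7% over all genes tested. Of these 11395 genes 2150 rose and 4279 fell, with a median difference of -0.17, so falls were more common among well-expressed genes. In bulk RNA, fewer cells of a kind and less RNA per cell cannot be told apart, and this holds for every gene group below. The count of calls was 6166 without -EGF replicate A and 10024 without +EGF replicate C, and 2074 with replicates B and C alone, where a single library without EGF was left.

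The differences seen within replicate A and within replicate C, which share no library, ran in the same direction in 80.6% of the genes tested (Pearson's r = 0.82 across 17950 genes, which are not independent of each other). The median absolute difference was 0.49 within A and 0.38 within C. The plot of these differences shows this agreement together with the smaller differences in C.

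**Figure D1:**
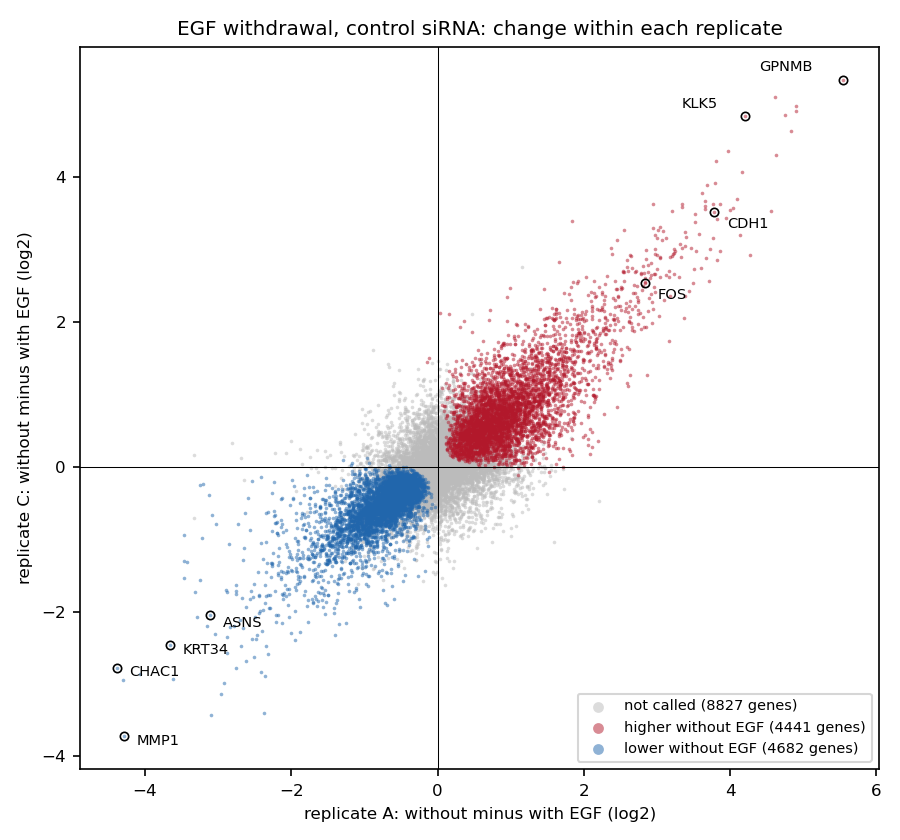
Log2 difference without EGF minus with EGF within replicate A (x axis) and within replicate C (y axis), each point 1 of the 17950 genes tested. Over all genes tested r = 0.82, with differences smaller in replicate C (median absolute difference 0.38) than in A (0.49). Genes called higher and lower were selected from these same libraries, so their place along the diagonal is no separate result.

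The largest rise among well-expressed genes was that of GPNMB, a glycoprotein of lysosomes and melanosomes, which measured 5.95, 5.86 and 6.34 with EGF and 11.49 and 11.68 without and rose by 5.54 ± 0.36 (adjusted p = 7.04e-06), a 46.4-fold difference. TRIM29, a tripartite-motif protein of basal epithelia, measured 6.94, 7.17 and 7.0 with EGF and 11.69 and 11.85 without and rose by 4.73 ± 0.30 (adjusted p = 7.04e-06). CDH1, which encodes the adherens junction protein E-cadherin, measured 7.28, 7.09 and 7.57 with EGF and 11.06 and 11.09 without and rose by 3.76 ± 0.26 (adjusted p = 7.04e-06). In all 3 genes the libraries without EGF lay at least 3 log2 units above every library with EGF. The other rises among the 15 largest included KLK5, APOE, FMO2, TNFSF10, FABP4, VSIR, SLPI, C1R, MEGF6, TSHZ2 and FBXO32, with differences from 3.64 to 4.72. They span a kallikrein and a protease inhibitor of epidermis (KLK5, SLPI), lipid carriers (APOE, FABP4), a death ligand (TNFSF10), a complement protease (C1R) and an atrophy-associated ubiquitin ligase (FBXO32).

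The largest fall was that of MMP1, interstitial collagenase, which measured 11.02, 11.06 and 10.15 with EGF and 6.74 and 6.43 without and fell by 4.16 ± 0.29 (adjusted p = 7.04e-06), or 17.9-fold. HMGA1, an architectural chromatin protein of proliferating cells, measured 13.07, 12.97 and 12.68 with EGF and 10.38 and 10.20 without and fell by 2.61 ± 0.16 (adjusted p = 7.04e-06). BCAT1, the cytosolic branched-chain aminotransferase, measured 11.14, 11.26 and 10.70 with EGF and 8.27 and 8.12 without and fell by 2.84 ± 0.26 (adjusted p = 1.91e-05). The groups were far apart in each of these, with +EGF replicate C the lowest of the libraries with EGF. The remaining falls among the 15 largest were CHAC1, DMBT1, IL13RA2, INSC, OSBP2, ASNS, TRIB3, STEAP1, PSAT1, PRSS3, CBS and ARG2, by 2.57 to 3.85. CHAC1, ASNS, TRIB3, PSAT1 and CBS belong to amino acid metabolism and its stress response, described below.

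**Figure D2:**
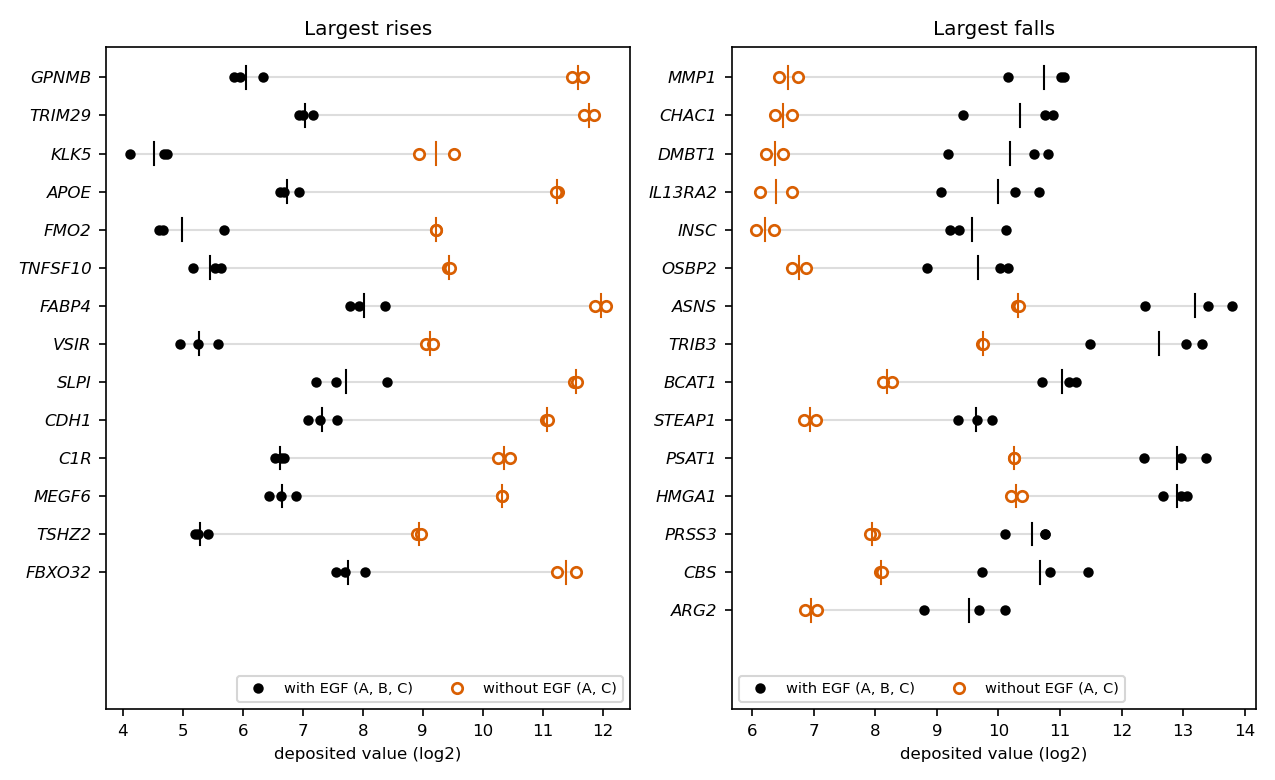
Log2 expression in each of the 5 control siRNA libraries (points) for genes among the 15 largest rises and the 15 largest falls, of those whose mean in the higher group was above 8.85. The genes were chosen among those called with groups that do not overlap, and run from GPNMB (rise of 5.54) to MMP1 (fall of 4.16).

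Of 8 ErbB ligands tested, 4 fell and none rose, with a median difference of -1.23 (-0.76 over the 10 in the table) against 0.00 over all genes. TGFA, an autocrine ligand of EGFR, measured 12.24, 12.12 and 11.51 with EGF and 10.50 and 10.49 without and fell by 1.46 ± 0.22 (adjusted p = 0.000266). AREG, amphiregulin, measured 14.47, 14.69 and 13.84 with EGF and 12.54 and 12.55 without and fell by 1.79 ± 0.26 (adjusted p = 0.000253). Both were lowest without EGF, with +EGF replicate C the lowest of the other 3. HBEGF and EREG were the other 2 ligands called lower, and their calls were lost without -EGF replicate A, without -EGF replicate C or without +EGF replicate A, which leaves 2. Among 11 ErbB receptors and their inhibitors 4 rose (36.4%, against 24.7% of all genes tested) and 3 fell (27.3%, against 26.1%). LRIG3, a transmembrane protein related to the EGFR inhibitor LRIG1, measured 11.31, 11.15 and 11.55 with EGF and 12.41 and 12.57 without and rose by 1.16 ± 0.17 (adjusted p = 0.000256). ERBB2 measured 10.21, 10.13 and 10.42 with EGF and 10.83 and 10.86 without and rose by 0.59 ± 0.10 (adjusted p = 0.000735), whereas EGFR itself differed by 0.06 ± 0.26 and was not called. ERRFI1, a feedback inhibitor of EGFR, fell by 1.73 ± 0.50 (adjusted p = 0.0142), a call lost without replicate A of either group, when the falls in this list number 1.

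Feedback inhibitors of ERK signalling fell more often than they rose: 7 of 15 Sprouty, SPRED and dual-specificity phosphatase genes were lower and 1 was higher, with a median difference of -0.33. SPRY4 measured 10.84, 10.54 and 10.39 with EGF and 8.74 and 8.64 without and fell by 1.90 ± 0.15 (adjusted p = 1.14e-05). SPRED1 measured 12.55, 12.37 and 12.39 with EGF and 11.68 and 11.63 without and fell by 0.78 ± 0.09 (adjusted p = 4.88e-05). DUSP5, a nuclear ERK phosphatase, measured 13.61, 13.85 and 12.62 with EGF and 11.79 and 11.83 without and fell by 1.55 ± 0.32 (adjusted p = 0.00234). The libraries without EGF were the lowest in all 3 genes. DUSP1 differed by 0.46 ± 0.36 and SPRY1 by 0.33 ± 0.23, neither past the threshold.

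Of 27 immediate-early genes and ETS factors, which include transcription factors downstream of ERK, 10 fell (37.0%, against 26.1% of all genes tested). Another 6 rose (22.2%, against 24.7%), a count that was lower without -EGF replicate C. The median difference of the list was -0.08, and -0.27 without +EGF replicate C. ETV4 and ETV5, ETS factors of the PEA3 group, were among the falls: ETV5 measured 11.47, 11.38 and 11.03 with EGF and 8.97 and 8.95 without and fell by 2.33 ± 0.21 (adjusted p = 1.96e-05). PHLDA1, an early response gene, measured 14.54, 14.64 and 13.26 with EGF and 12.27 and 12.37 without and fell by 1.83 ± 0.42 (adjusted p = 0.00404). FOSL1, the AP-1 subunit FRA1, fell by 1.65 ± 0.18 (adjusted p = 4.87e-05). FOS, another AP-1 subunit, differed in the other direction and measured 9.61, 9.46 and 10.10 with EGF and 12.45 and 12.64 without and rose by 2.82 ± 0.28 (adjusted p = 2.93e-05). FOSB measured 7.32, 7.83 and 7.48 with EGF and 10.28 and 10.15 without and rose by 2.67 ± 0.26 (adjusted p = 2.57e-05). The AP-1 subunits were thus apart, FOSL1 lower and FOS and FOSB higher in every library without EGF. NR4A2 rose by 1.38, and JUN, JUND, JUNB and SRF were not called.

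Of 11 genes of the MYC network 5 rose and 2 fell (4 without +EGF replicate C), with a median of 0.20. MYC differed by -0.15 ± 0.13 and was not called. MXI1, a MAX partner that opposes MYC, measured 10.27, 10.49 and 10.27 with EGF and 11.33 and 11.23 without and rose by 0.94 ± 0.12 (adjusted p = 0.000119). Of 23 G1 cyclins, kinases and their inhibitors 7 fell (3 without -EGF replicate A) and 3 rose (1 without -EGF replicate A, -EGF replicate C or +EGF replicate A, and 6 without +EGF replicate C). CCND1, cyclin D1, measured 12.57, 12.21 and 13.02 with EGF and 11.45 and 11.32 without and fell by 1.21 ± 0.22 (adjusted p = 0.00105). CDKN1A, the CDK inhibitor p21, measured 12.10, 12.18 and 11.66 with EGF and 10.90 and 10.97 without and fell by 1.04 ± 0.15 (adjusted p = 0.000266). CDKN2B, the CDK4 and CDK6 inhibitor p15, measured 11.32, 11.17 and 10.66 with EGF and 12.19 and 12.30 without and rose by 1.20 ± 0.24 (adjusted p = 0.00191). The cyclin and p21 were thus lower without EGF and p15 was higher, each without overlap between groups.

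Genes of mitosis fell almost together: 41 of 45 were lower and none was higher, with a median difference of -0.91. CDC20, the activator of the anaphase-promoting complex, measured 12.95, 12.86 and 12.68 with EGF and 11.25 and 11.37 without and fell by 1.53 ± 0.13 (adjusted p = 1.62e-05). AURKB, the kinase of the chromosomal passenger complex, measured 10.96, 10.74 and 10.67 with EGF and 9.28 and 9.56 without and fell by 1.37 ± 0.13 (adjusted p = 2.3e-05). CENPA, the centromeric histone, measured 10.73, 10.69 and 10.28 with EGF and 9.16 and 9.32 without and fell by 1.33 ± 0.14 (adjusted p = 4.24e-05). All 3 were roughly 1 log2 unit or more below the lowest library with EGF. CCNB2, a mitotic cyclin, fell by 1.09 ± 0.09 (adjusted p = 1.37e-05). MKI67, KIF20A, CCNF and CDC25B were the 4 members not called. Of 48 DNA replication genes 18 fell and none rose, with a median of -0.44. The share that fell was 37.5%, against 26.1% of all genes tested and 32.6% of protein-coding ones. Without +EGF replicate B 28 fell, with a median of -0.68, and without +EGF replicate C 18 fell and 2 rose, with a median of -0.24. CDC45, part of the replicative helicase, measured 12.09, 11.66 and 11.87 with EGF and 10.21 and 10.53 without and fell by 1.5 ± 0.15 (adjusted p = 3.14e-05). CDC6, a licensing factor, measured 12.17, 12.30 and 12.26 with EGF and 11.13 and 11.26 without and fell by 1.05 ± 0.14 (adjusted p = 0.000169). The helicase subunits MCM2 to MCM6 differed by -0.33 to 0.11 and were not called. Of 19 replication-dependent histone genes tested 15 fell, with a median of -0.94, which includes near-identical copies whose reads may be split between genes.

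The 250 bases before the annotated start in RefSeq (GRCh38.p14) were available for 11421 of the genes tested, and 6 short motifs were searched on both strands in 7 gene lists. The letters TTTGAA, the core of the cell cycle homology region of late cell cycle promoters, stood in 18 of 40 mitotic promoters and in 9.1% of all tested ones. CCAAT stood in 29 of 40 and in 34.8%. A match is a description of the sequence and not a binding site. The promoters printed here and below were chosen after their matches were seen. Those of CDC20 (chr1:43358731-43358980, plus strand) and CCNB2 (chr15:59104896-59105145, plus strand) are shown with TTTGAA or its reverse complement in capitals, 178 to 173 and 65 to 60 bases before the start in CDC20 and 29 to 24 in CCNB2.
CDC20: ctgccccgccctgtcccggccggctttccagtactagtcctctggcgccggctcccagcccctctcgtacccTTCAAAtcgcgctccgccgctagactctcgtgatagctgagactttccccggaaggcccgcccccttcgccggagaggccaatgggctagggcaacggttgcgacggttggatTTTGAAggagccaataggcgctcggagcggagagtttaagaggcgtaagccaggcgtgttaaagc
CCNB2: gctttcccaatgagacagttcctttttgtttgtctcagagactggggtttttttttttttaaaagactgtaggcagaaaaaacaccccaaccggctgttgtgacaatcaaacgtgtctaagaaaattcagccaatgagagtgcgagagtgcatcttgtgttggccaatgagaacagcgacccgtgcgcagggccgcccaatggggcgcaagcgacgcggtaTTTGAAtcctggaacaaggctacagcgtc

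Ribosome biogenesis factors and RNA polymerase I subunits were lower in 44 of 57 genes and higher in none, with a median of -0.59. LYAR, a nucleolar growth regulator, measured 12.56, 12.47 and 11.96 with EGF and 10.51 and 10.51 without and fell by 1.82 ± 0.17 (adjusted p = 2.24e-05). PNO1, an assembly factor of the small subunit, measured 10.92, 10.86 and 10.58 with EGF and 9.72 and 9.69 without and fell by 1.08 ± 0.11 (adjusted p = 3.15e-05). DDX21, a nucleolar helicase, measured 15.39, 15.18 and 14.94 with EGF and 14.18 and 14.28 without and fell by 0.94 ± 0.12 (adjusted p = 0.000137). In each of them every library without EGF was below every library with it. The ribosomal proteins themselves did not move this way: 4 of 49 were higher (2 without -EGF replicate C), 2 were lower (6 without +EGF replicate C), and the median was 0.04. After quantile normalization 20 of the 49 were called higher and none lower.

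Of 20 cytosolic aminoacyl-tRNA synthetases, the enzymes that load tRNAs, 19 fell and only QARS1 (0.16 ± 0.07) was not called, with a median difference of -1.08. MARS1 measured 14.08, 14.40 and 13.36 with EGF and 12.04 and 12.12 without and fell by 1.87 ± 0.31 (adjusted p = 0.000532). GARS1 measured 14.07, 14.02 and 13.60 with EGF and 12.19 and 12.33 without and fell by 1.64 ± 0.23 (adjusted p = 0.000188). WARS1 measured 12.76, 13.09 and 12.26 with EGF and 11.15 and 11.09 without and fell by 1.58 ± 0.25 (adjusted p = 0.000412). The lowest library with EGF was replicate C in each, still more than 1 log2 unit above those without. Among the smallest falls called was that of RARS1, by 0.38.

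Genes of amino acid synthesis and transport and other targets of ATF4, the factor of the amino acid response, were lower in 25 of 33 cases and higher in none, with a median of -1.37. The number lower was 16 without -EGF replicate A. CHAC1, a glutathione-degrading enzyme, measured 10.75, 10.89 and 9.42 with EGF and 6.37 and 6.65 without and fell by 3.85 ± 0.49 (adjusted p = 0.000106). PSAT1, of serine synthesis, measured 12.96, 13.37 and 12.37 with EGF and 10.26 and 10.26 without and fell by 2.64 ± 0.39 (adjusted p = 0.00027). ASNS, asparagine synthetase, measured 13.40, 13.79 and 12.38 with EGF and 10.30 and 10.33 without and fell by 2.88 ± 0.48 (adjusted p = 0.000551). In all 3 the libraries without EGF were close to each other and far below, and +EGF replicate C was the lowest of the libraries with EGF. With replicates B and C alone the calls of ASNS (a difference of -2.75, adjusted p = 0.0598), TRIB3 (-2.64, 0.0975) and CBS (-2.49, 0.0923) did not hold, by limma. ATF4 itself fell by 1.44, while the transporter genes SLC7A5, SLC3A2, SLC1A5 and SLC38A2 were not called. Replicates B and C with EGF differed by a median of 1.09 over these genes, against 0.02 over all genes tested, and what sets those libraries apart was not tested.

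The ATF4 composite element, searched as TGATGNAAN, stood in 2 of 26 promoters of this list, in 2 of 16 synthetase promoters and in 1.61% of all tested ones. The pair from the amino acid list are those of CHAC1 (chr15:40953221-40953470, plus strand) and ASNS (chr7:97872409-97872658, minus strand). The element is in capitals, as its reverse complement 210 to 202 bases before the start of CHAC1 and as written 68 to 60 bases before that of ASNS.
CHAC1: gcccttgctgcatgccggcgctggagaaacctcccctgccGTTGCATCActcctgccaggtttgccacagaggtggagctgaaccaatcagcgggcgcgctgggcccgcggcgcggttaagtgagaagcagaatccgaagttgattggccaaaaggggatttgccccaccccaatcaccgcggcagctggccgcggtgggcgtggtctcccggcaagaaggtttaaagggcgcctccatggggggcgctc
ASNS: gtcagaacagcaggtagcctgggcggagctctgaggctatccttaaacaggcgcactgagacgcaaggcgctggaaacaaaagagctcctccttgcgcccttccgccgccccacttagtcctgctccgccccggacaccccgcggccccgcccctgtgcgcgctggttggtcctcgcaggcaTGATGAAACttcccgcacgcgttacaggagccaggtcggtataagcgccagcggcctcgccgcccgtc

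ER chaperones and unfolded protein response genes were lower in 18 of 23 cases, with a median of -0.68, and none was higher. XBP1, a transcription factor of this response, measured 14, 14.06 and 12.80 with EGF and 11.80 and 11.88 without and fell by 1.78 ± 0.38 (adjusted p = 0.0026). MANF, a secreted ER-resident factor, measured 11.87, 12.21 and 11.65 with EGF and 10.77 and 10.81 without and fell by 1.12 ± 0.15 (adjusted p = 0.000159). The groups did not overlap in either. Glycolysis genes fell in 15 of 25 cases with a median of -0.41: PFKP, the platelet phosphofructokinase, fell by 0.98 ± 0.10 (adjusted p = 2.63e-05) and LDHB fell by 0.89 ± 0.12 (adjusted p = 0.000121). The glucose transporters split, since SLC2A3 measured 10.20, 10.07 and 10.05 with EGF and 9.11 and 9.20 without and fell by 0.96 ± 0.13 (adjusted p = 0.000169), whereas SLC2A1 measured 11.92, 12.05 and 11.79 with EGF and 13.21 and 13.21 without and rose by 1.29 ± 0.15 (adjusted p = 6.01e-05). SLC2A1 was the only glycolysis member called higher. After quantile normalization 10 members of the glycolysis list were lower and 2 higher, with a median of -0.1 against -0.03 over all genes tested.

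Of 31 sterol and fatty acid synthesis genes 12 fell and none rose, with a median of -0.51 (-0.80 without +EGF replicate B and -0.28 without +EGF replicate C). The share that fell was 38.7%, against 26.1% of all genes tested and 32.6% of protein-coding ones. FADS1, a fatty acid desaturase, measured 12.76, 12.49 and 12.73 with EGF and 11.24 and 11.39 without and fell by 1.34 ± 0.12 (adjusted p = 1.96e-05). ACAT2, a cytosolic thiolase, measured 13.32, 12.89 and 13.41 with EGF and 11.64 and 11.94 without and fell by 1.42 ± 0.19 (adjusted p = 0.000164). In both, +EGF replicate B was the lowest library with EGF, unlike in the amino acid genes. SREBF2, a transcription factor of sterol synthesis, was not called. Of 23 genes of LXR and PPAR lipid handling 11 rose and 5 fell (3 without -EGF replicate A). APOE, apolipoprotein E, measured 6.62, 6.68 and 6.93 with EGF and 11.26 and 11.23 without and rose by 4.5 ± 0.31 (adjusted p = 7.04e-06). CD36, a fatty acid translocase, measured 3.84, 3.62 and 3.52 with EGF and 5.70 and 5.70 without and rose by 2.04 ± 0.30 (adjusted p = 0.00026). PPARG, the adipogenic nuclear receptor, measured 8.91, 9.06 and 9.01 with EGF and 7.57 and 7.47 without and fell by 1.47 ± 0.14 (adjusted p = 2.23e-05). FABP4, an adipocyte marker, rose by 3.95 ± 0.29 (adjusted p = 9.23e-06), while the adipocyte markers ADIPOQ, LEP and PLIN1 stayed below the expression filter in the control siRNA libraries.

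Of 55 lysosomal genes 30 rose and 8 fell, with a median of 0.36. The rises numbered 19 when either -EGF library was left out, and the falls 3 without -EGF replicate A, 4 without -EGF replicate C and 5 without +EGF replicate A. CTSD, the protease cathepsin D, measured 9.49, 9.59 and 9.72 with EGF and 11.04 and 11.16 without and rose by 1.5 ± 0.11 (adjusted p = 9.34e-06). CTSF, cathepsin F, measured 7.29, 7.12 and 7.29 with EGF and 9.20 and 9.26 without and rose by 1.99 ± 0.21 (adjusted p = 4.03e-05). GAA, acid alpha-glucosidase, measured 8.67, 8.92 and 8.67 with EGF and 9.93 and 10.02 without and rose by 1.22 ± 0.12 (adjusted p = 3.06e-05). Each rose by more than 1 log2 unit with the 3 libraries with EGF close together. LAMP1 and the proton pump subunit ATP6V1A were not called. Among 28 MiT-TFE factors and autophagy genes 7 rose and 9 fell (4 without -EGF replicate C), with a median of 0.04. The shares of this list, 25.0% higher and 32.1% lower, were near those of all genes tested, 24.7% and 26.1%. BNIP3, a mitophagy receptor, measured 12.50, 12.27 and 12.48 with EGF and 11.54 and 11.52 without and fell by 0.88 ± 0.12 (adjusted p = 0.000138). TP53INP1, an autophagy and stress protein, measured 7.72, 7.88 and 8.76 with EGF and 10.32 and 9.93 without and rose by 2.00 ± 0.33 (adjusted p = 0.000507). TFEB, a master regulator of lysosomal genes, rose by 0.73 ± 0.19 (adjusted p = 0.00703).

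The E-box TCACGTG, the core of the motif shared by lysosomal genes, stood in 9 of 34 lysosomal promoters and in 4.98% of all tested ones. The promoter of CTSD (chr11:1763928-1764177, minus strand) is shown with its reverse complement in capitals, 47 to 41 bases before the start. That of GPNMB held no match.
CTSD: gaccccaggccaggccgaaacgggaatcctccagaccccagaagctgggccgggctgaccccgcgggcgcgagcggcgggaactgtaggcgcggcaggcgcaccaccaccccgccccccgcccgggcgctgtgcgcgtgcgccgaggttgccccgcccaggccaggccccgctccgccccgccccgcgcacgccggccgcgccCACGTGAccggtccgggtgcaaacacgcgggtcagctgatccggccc

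FOXO factors and their known targets were higher in 16 of 24 cases and lower in 1 (3 without +EGF replicate C), with a median of 0.93. FOXO1 measured 7.44, 7.69 and 8.24 with EGF and 10.54 and 10.53 without and rose by 2.74 ± 0.21 (adjusted p = 1.06e-05). FBXO32, the ubiquitin ligase atrogin-1, measured 7.55, 8.03 and 7.70 with EGF and 11.55 and 11.24 without and rose by 3.64 ± 0.30 (adjusted p = 1.18e-05). KLHL24, another adaptor of ubiquitin ligases, measured 9.13, 9.45 and 9.26 with EGF and 11.48 and 11.22 without and rose by 2.07 ± 0.22 (adjusted p = 3.49e-05). All 3 were more than 1.5 log2 units higher in both libraries without EGF than in any with it. PIK3IP1, an inhibitor of PI3K, measured 6.26, 6.27 and 6.22 with EGF and 8.42 and 7.98 without and rose by 1.95 ± 0.29 (adjusted p = 0.000288). INSR, the insulin receptor, rose by 1.56 ± 0.20 (adjusted p = 0.000126), and IGF1R rose by 1.27. IRS1, IRS2 and SESN1 were not called, and GADD45B was the member lower. The letters GTAAACA, part of the FOXO consensus, stood in none of 22 promoters of this list and in 1.98% of all tested ones.

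TNFSF10, the death ligand TRAIL, measured 5.64, 5.17 and 5.54 with EGF and 9.43 and 9.46 without and rose by 3.99 ± 0.40 (adjusted p = 3.09e-05). Of the 14 TRAIL and death receptor genes 2 rose and 5 fell (50.0% called, against 50.8% of all genes tested), 3 of them without -EGF replicate A, -EGF replicate C or +EGF replicate A. Of 14 BCL2 family genes 7 fell (4 without -EGF replicate A) and 2 rose. The rises were the pro-death BH3-only genes BMF and BCL2L11: BMF measured 4.18, 4.31 and 4.78 with EGF and 6.26 and 6.11 without and rose by 1.76 ± 0.24 (adjusted p = 0.000155). BCL2L11, which encodes BIM, measured 6.66, 6.79 and 7.80 with EGF and 8.86 and 8.87 without and rose by 1.78 ± 0.29 (adjusted p = 0.000533). BCL2L1, which encodes the survival protein BCL-XL, measured 12.90, 12.90 and 12.36 with EGF and 11.21 and 11.21 without and fell by 1.51 ± 0.17 (adjusted p = 5.07e-05). BIM was lowest in +EGF replicates A and B, with replicate C about 1 log2 unit above them and still 1 below the libraries without EGF. PMAIP1, which encodes the BH3-only protein NOXA, fell by 1.61.

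All 8 basal and wound keratins rose, with a median of 1.5. KRT15, a keratin of basal and progenitor cells, measured 10.25, 10.31 and 10.50 with EGF and 12.64 and 12.53 without and rose by 2.23 ± 0.21 (adjusted p = 2.1e-05). KRT16, a keratin of activated and hyperproliferative epidermis, measured 10.31, 10.72 and 10.11 with EGF and 13.25 and 13.41 without and rose by 2.95 ± 0.24 (adjusted p = 1.11e-05). KRT5, the type II keratin of basal cells, measured 17.23, 17.21 and 17.45 with EGF and 18.54 and 18.78 without and rose by 1.36 ± 0.14 (adjusted p = 3.77e-05). The groups did not overlap in any of the 8 genes, but KRT6A, KRT6B and KRT6C, and KRT14, KRT16 and KRT17, are close copies whose reads may be split. Of 4 simple epithelial keratins 3 fell and KRT8 rose: KRT18 measured 11.91, 11.98 and 11.71 with EGF and 10.94 and 10.94 without and fell by 0.93 ± 0.12 (adjusted p = 9.01e-05). The summed level of the 8 basal mammary markers was 18.66 to 18.81 with EGF and 19.57 to 19.74 without, and that of the luminal markers, most of it KRT18 and KRT8, 12.38 to 12.63 and 12.22 to 12.25. Of the 6 luminal markers tested 3 rose (KRT8, GATA3 and MUC1, by 0.45, 0.73 and 1.59) and KRT18 fell, with a median of 0.14. KRT10, the suprabasal keratin of epidermis, differed by -0.20 ± 0.23 and was not called.

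Cornified envelope and barrier lipid genes were higher in 12 of the 20 tested and lower in 2, but some of these passed the filter through their values without EGF. Without a filter 15 of the 38 members were higher and 2 lower, with a median of 0.20 against 1.31 over the 20. Of the 7 with a mean of about 100 or more 3 were higher and 1 lower, with a median of 0.18. PPL, periplakin, measured 10.54, 10.68 and 10.76 with EGF and 13.58 and 13.67 without and rose by 2.96 ± 0.19 (adjusted p = 7.04e-06). TGM1, the transglutaminase that crosslinks the envelope, measured 5.39, 6.08 and 5.55 with EGF and 9.04 and 9.15 without and rose by 3.43 ± 0.32 (adjusted p = 2.03e-05). SPRR1B, a small proline-rich envelope protein, measured 2.37, 2.26 and 2.20 with EGF and 5.72 and 5.79 without and rose by 3.47 ± 0.39 (adjusted p = 4.79e-05). Every library without EGF stood more than 2 log2 units above those with EGF, although SPRR1B was low throughout and belongs to a family of close copies. GRHL3, a transcription factor of barrier formation, rose by 2.81 ± 0.27 (adjusted p = 2.3e-05). FLG, filaggrin, rose by 2.34 ± 0.21 (adjusted p = 1.96e-05), while IVL, involucrin, differed by 0.18 ± 0.33 and was not called. Kallikreins and epidermal protease inhibitors were higher in 8 of the 11 tested, with the same limit: without a filter 10 of 21 members were higher and 1 lower, with a median of 0.33 against 1.29 over the 11. Of the 6 with a mean of about 100 or more 3 were higher, with a median of 0.26. KLK5, which starts the epidermal kallikrein cascade, measured 4.74, 4.12 and 4.68 with EGF and 8.94 and 9.52 without and rose by 4.72 ± 0.40 (adjusted p = 1.24e-05). KLK7 measured 2.12, 2.09 and 2.16 with EGF and 5.46 and 5.79 without and rose by 3.5 ± 0.40 (adjusted p = 5.33e-05). SERPINB13, a cathepsin inhibitor of epidermis, measured 3.84, 3.66 and 3.69 with EGF and 8.45 and 8.8 without and rose by 4.90 ± 0.39 (adjusted p = 1.11e-05). S100A8, which pairs with S100A9 as calprotectin, rose by 2.92 ± 0.34 (adjusted p = 6.04e-05), and of 11 S100 genes 4 rose (2 when either -EGF library was left out) and 3 fell. These S100 shares, 36.4% and 27.3%, compare with 24.7% and 26.1% of all genes tested.

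The AP-1 consensus TGANTCA stood in 7 of 15 promoters of the cornified list and in 4.4% of all tested ones. The members with the largest rise that held it are shown with the match in capitals: SPRR1B (chr1:153030953-153031202, plus strand; 141 to 135 and 111 to 105 bases before the start) and FLG (chr1:152325240-152325489, minus strand; 79 to 73).
SPRR1B: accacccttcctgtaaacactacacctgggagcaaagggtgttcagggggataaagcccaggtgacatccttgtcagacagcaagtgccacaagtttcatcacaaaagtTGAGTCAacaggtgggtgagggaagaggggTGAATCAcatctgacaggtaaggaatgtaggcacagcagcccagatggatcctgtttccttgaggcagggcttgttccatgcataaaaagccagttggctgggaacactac
FLG: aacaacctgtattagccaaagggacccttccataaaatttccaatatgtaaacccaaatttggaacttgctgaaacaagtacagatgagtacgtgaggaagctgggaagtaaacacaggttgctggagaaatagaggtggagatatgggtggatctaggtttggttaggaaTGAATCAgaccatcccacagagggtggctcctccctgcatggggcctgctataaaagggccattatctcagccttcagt

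Desmosome genes rose in 10 of 13 cases and fell in 1, PKP4, with a median of 1.58. DSG3, desmoglein 3 of basal layers, measured 12.33, 12.72 and 11.89 with EGF and 14.48 and 14.46 without and rose by 2.15 ± 0.29 (adjusted p = 0.000148). DSG1, desmoglein 1 of differentiated layers, measured 3.23, 2.72 and 3.5 with EGF and 7.40 and 7.57 without and rose by 4.34 ± 0.47 (adjusted p = 4.24e-05). DSP, the desmoplakin that ties the plaque to keratins, measured 15, 15.17 and 15.14 with EGF and 16.95 and 16.98 without and rose by 1.86 ± 0.13 (adjusted p = 7.04e-06). The values without EGF were above all values with EGF, and closely matched within each group for DSP. DSG2, the desmoglein of simple epithelia, differed by -0.04 ± 0.10 and was not called. Of 10 hemidesmosome and anchoring genes 3 rose and 2 fell (4 without +EGF replicate C): COL7A1, the anchoring fibril collagen, measured 12.67, 12.75 and 12.70 with EGF and 14.36 and 14.40 without and rose by 1.68 ± 0.13 (adjusted p = 1.06e-05).

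Among 20 epithelial lineage factors 9 rose and 2 fell, with a median of 0.42. MAF measured 5.02, 5.44 and 5.45 with EGF and 7.97 and 7.94 without and rose by 2.65 ± 0.21 (adjusted p = 1.12e-05). EHF, an epithelial ETS factor, measured 5.32, 5.63 and 5.12 with EGF and 8.31 and 7.85 without and rose by 2.73 ± 0.38 (adjusted p = 0.000191). Both were at least 2 log2 units higher in each library without EGF. TP63, the defining factor of basal epithelia, differed by 0.41 ± 0.29 and was not called, nor were KLF4 and ZNF750. Of 20 Notch pathway genes 10 rose and 1 fell (4 without +EGF replicate C), with a median of 0.32. The receptor gene NOTCH3 measured 5.69, 6.22 and 5.94 with EGF and 9.08 and 9.19 without and rose by 3.18 ± 0.22 (adjusted p = 7.26e-06). DLL1, a ligand, measured 7.08, 7.41 and 7.60 with EGF and 10.21 and 10.25 without and rose by 2.86 ± 0.21 (adjusted p = 9.34e-06). JAG2, another ligand, measured 9.08, 8.86 and 9.60 with EGF and 10.92 and 11.04 without and rose by 1.81 ± 0.24 (adjusted p = 0.000149). The groups were separate for each, whereas the ligand JAG1 and the target HES1 were not called and the target HEY1 fell.

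**Figure D3:**
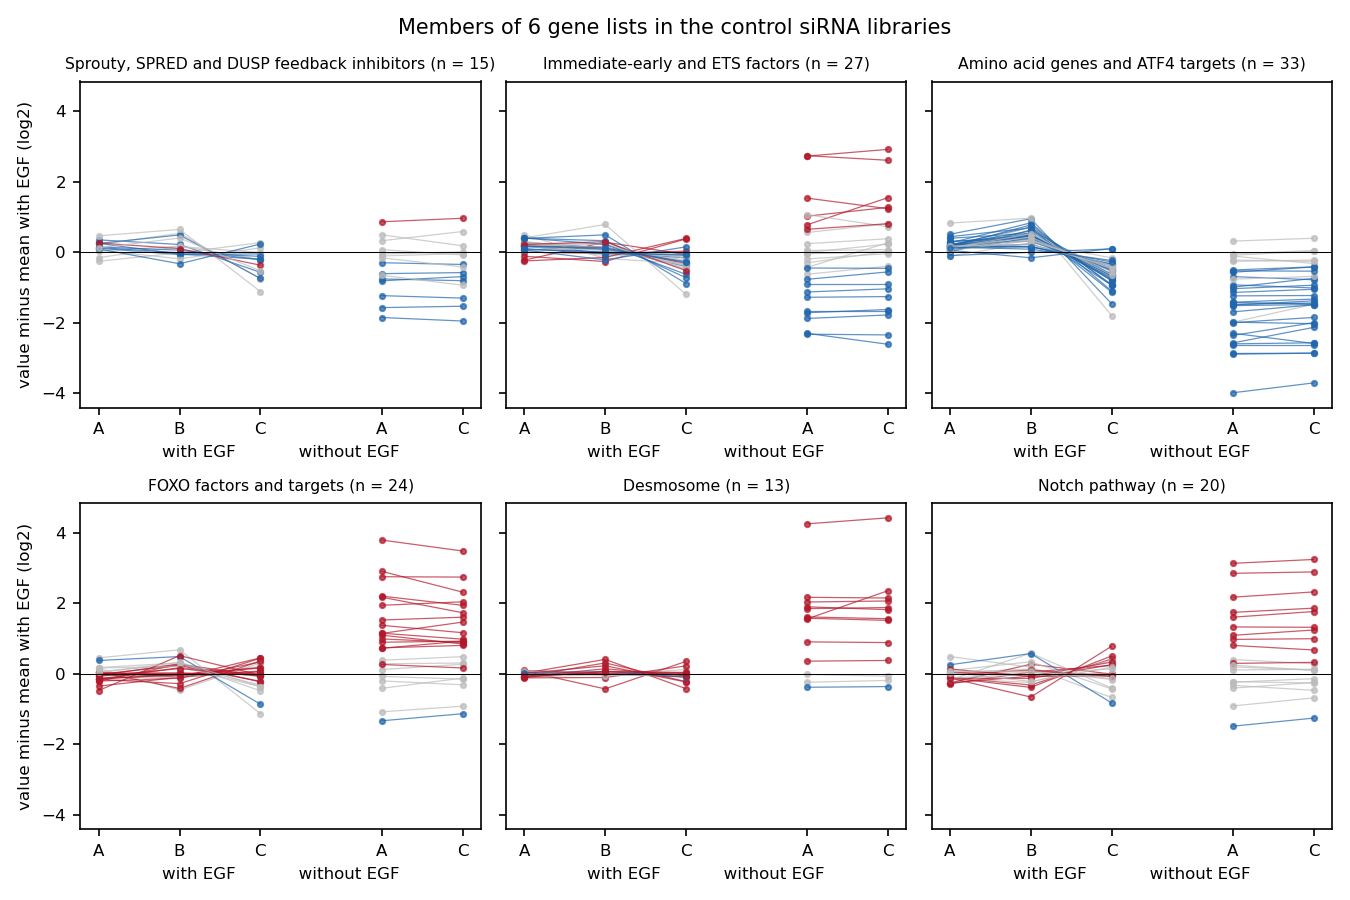
Log2 value minus the mean with EGF (y axis) of every tested member of 6 gene lists in the 5 control siRNA libraries (x axis), red where called higher, blue lower and grey not called; lines join the values of 1 gene within a group and imply no order. FOXO, desmosome and Notch members lie mostly above 0 without EGF, and amino acid genes lie mostly below 0 there, with lower values in +EGF replicate C than in A and B for most of them.

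Of 24 fibrillar collagen and interstitial matrix genes 14 rose and 3 fell, with a median of 0.94 (0.52 over the 28 in the table). COL1A1 measured 7.84, 7.63 and 7.96 with EGF and 10.88 and 10.85 without and rose by 3.05 ± 0.24 (adjusted p = 1.11e-05). BGN, the proteoglycan biglycan, measured 5.75, 6.06 and 5.78 with EGF and 8.81 and 8.91 without and rose by 3.00 ± 0.19 (adjusted p = 7.04e-06). COL5A3 measured 6.80, 7.08 and 6.93 with EGF and 9.68 and 9.62 without and rose by 2.71 ± 0.18 (adjusted p = 7.04e-06). Fibroblast markers moved with them: 7 of 8 tested were higher, and their summed level was 10.75 to 11.12 with EGF and 13.09 to 13.22 without. COL1A2, a defining fibroblast collagen, lay at 1.42 to 1.84 in these libraries, below the filter. VIM, vimentin, measured 15.32, 15.36 and 15.12 with EGF and 14.42 and 14.35 without and fell by 0.88 ± 0.10 (adjusted p = 4.13e-05), and FN1, fibronectin, differed by -0.34 ± 0.15 and was not called. The part of other cells in the matrix rises was not tested.

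Of 16 EMT regulators and cadherins 5 rose (3 without -EGF replicate C, +EGF replicate A or +EGF replicate B) and 6 fell. The rises were 31.2% of the list and the falls 37.5%, against 24.7% and 26.1% of all genes tested. E-cadherin rose as given above and CDH3, P-cadherin, rose by 1.09 ± 0.18 (adjusted p = 0.000647). CDH2, N-cadherin, fell by 0.81 ± 0.09 (adjusted p = 5.92e-05). SNAI2 and ZEB1, repressors of epithelial genes, fell by 0.78 and 0.73, and TWIST1 and ZEB2 were not called. Of 17 other integrin subunits 6 rose (35.3%, against 24.7% of all genes tested) and 5 fell (29.4%, against 26.1%). ITGB6, the epithelial partner of integrin alpha v, measured 6.03, 5.74 and 6.68 with EGF and 9.26 and 9.62 without and rose by 3.29 ± 0.30 (adjusted p = 1.96e-05). ITGB1 and ITGA3 were not called.

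Secreted proteolysis shifted between members. TIMP3, a matrix-bound inhibitor of metalloproteinases, measured 8.66, 8.62 and 9.29 with EGF and 12.42 and 12.45 without and rose by 3.58 ± 0.28 (adjusted p = 1.06e-05). MMP2, gelatinase A, measured 5.71, 5.29 and 5.65 with EGF and 7.55 and 7.71 without and rose by 2.08 ± 0.20 (adjusted p = 2.37e-05). Of 14 metalloproteinase and TIMP genes 5 rose (3 without -EGF replicate A) and 3 fell (1 without replicate A of either group, 5 without +EGF replicate C). Of the metalloproteinase and TIMP list 35.7% was called higher and 21.4% lower, against 24.7% and 26.1% of all genes tested. Plasminogen activation genes fell in 5 of 9 cases, with a median of -0.92 (-0.41 over the 10 in the table). PLAUR, the urokinase receptor, measured 11.22, 11.24 and 10.82 with EGF and 9.81 and 9.72 without and fell by 1.32 ± 0.14 (adjusted p = 3.75e-05). PLAT, tissue plasminogen activator, measured 11.94, 11.58 and 11.58 with EGF and 10.28 and 10.37 without and fell by 1.38 ± 0.13 (adjusted p = 2.44e-05). SERPINE2, a protease nexin, measured 13.68, 13.59 and 13.64 with EGF and 12.40 and 12.40 without and fell by 1.24 ± 0.10 (adjusted p = 1.11e-05). All 3 were lower without EGF with no overlap, and PLAU, urokinase itself, differed by 0.17 ± 0.18 and was not called.

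Of 25 receptor tyrosine kinases outside the ErbB family 11 rose and 5 fell (3 without -EGF replicate C). FGFR2 measured 6.24, 5.99 and 7.01 with EGF and 9.41 and 9.63 without and rose by 3.11 ± 0.30 (adjusted p = 2.52e-05). FGFR3 measured 6.38, 6.03 and 7.23 with EGF and 9.84 and 10.25 without and rose by 3.5 ± 0.42 (adjusted p = 7.8e-05). AXL measured 14.29, 14.36 and 13.98 with EGF and 12.97 and 12.88 without and fell by 1.28 ± 0.15 (adjusted p = 6.72e-05). The fibroblast growth factor receptors were higher and AXL lower in every library without EGF, and MET was not called. Of the 5 endothelial markers in the table, the receptors KDR and TEK were the 2 that passed the filter: KDR rose by 2.51 ± 0.36 (adjusted p = 0.000223), and TEK fell by 1.13 (adjusted p = 0.00369). Of 15 Eph receptors and ephrins 8 rose and 3 fell, with a median of 0.52. EPHB6, a receptor with an inactive kinase domain, measured 3.62, 3.69 and 4.12 with EGF and 8.52 and 9.10 without and rose by 5.00 ± 0.39 (adjusted p = 1.06e-05). EPHB3 measured 4.63, 4.94 and 5.23 with EGF and 7.95 and 8.30 without and rose by 3.20 ± 0.31 (adjusted p = 2.43e-05). EPHA2, a receptor of epithelial cells, fell by 0.99 ± 0.22 (adjusted p = 0.00382).

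Interferon-stimulated genes were higher in 20 of 36 cases and lower in 3 (1 without replicate A of either group), with a median of 0.80. Over the 40 members in the table, without a filter, the median was 0.57. GBP2, a guanylate-binding protein, measured 6.00, 6.15 and 6.12 with EGF and 9.21 and 9.03 without and rose by 3.03 ± 0.28 (adjusted p = 2.14e-05). IFIT2 measured 4.72, 5.33 and 5.01 with EGF and 7.53 and 7.46 without and rose by 2.47 ± 0.22 (adjusted p = 1.87e-05). IFI44L measured 6.46, 6.46 and 6.72 with EGF and 8.40 and 8.5 without and rose by 1.90 ± 0.20 (adjusted p = 3.87e-05). These were clearly higher in both libraries without EGF, whereas ISG15, MX1, IRF1 and IRF7 were not called. MHC class I genes rose in 11 of 18 cases (7 when either -EGF library was left out), with a median of 0.45, and the HLA genes among them may share reads. Of 12 complement genes 9 rose and 1 fell, with a median of 0.87 (0.35 over the 21 in the table, and 0.57 without -EGF replicate A). C1R, a protease of the first component, measured 6.68, 6.54 and 6.63 with EGF and 10.45 and 10.26 without and rose by 3.74 ± 0.30 (adjusted p = 1.06e-05). C1S, its partner, measured 7.11, 7.27 and 7.31 with EGF and 10.49 and 10.36 without and rose by 3.20 ± 0.25 (adjusted p = 1.09e-05). C3 measured 11.33, 11.66 and 11.60 with EGF and 14.90 and 14.82 without and rose by 3.33 ± 0.20 (adjusted p = 7.04e-06). CD59, which protects cells from complement, fell by 1.01 ± 0.13 (adjusted p = 0.000101), opposite to the components.

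Inflammatory cytokines and chemokines were lower in 9 of 21 cases and higher in 4, with a median of -1.27 (-0.45 over the 28 in the table), but the count of falls was 2 without -EGF replicate A, 3 without -EGF replicate C and 5 without +EGF replicate A. IL13RA2, a decoy receptor for IL-13, measured 10.27, 10.66 and 9.06 with EGF and 6.65 and 6.13 without and fell by 3.61 ± 0.42 (adjusted p = 6.5e-05). IL1RN, the antagonist of IL-1, measured 3.20, 3.18 and 3.04 with EGF and 6.15 and 6.67 without and rose by 3.27 ± 0.35 (adjusted p = 4.04e-05). IL6 measured 8.43, 9.05 and 6.10 with EGF and 4.97 and 5.16 without and fell by 2.80 ± 0.78 (adjusted p = 0.0113), a call lost when either -EGF library was left out. IL6 differed by about 3 log2 units between +EGF replicates B and C, more than between the groups.

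Of 29 p53 targets 16 fell and 2 rose (4 without +EGF replicate C). AEN, a nuclease, measured 11.44, 11.20 and 10.99 with EGF and 9.73 and 9.95 without and fell by 1.37 ± 0.14 (adjusted p = 3.58e-05). Of 24 NRF2 targets 7 rose (4 without -EGF replicate C) and 6 fell: AKR1C3, an aldo-keto reductase with close copies, rose by 2.02 ± 0.30 (adjusted p = 0.000297), and NQO1 differed by 0.04 ± 0.10 and was not called. Among 26 long noncoding RNAs 5 rose and 10 fell (6 when either -EGF library was left out). Of all genes tested 24.7% were called higher and 26.1% lower. The shares were 29.2% and 25.0% in the NRF2 list and 19.2% and 38.5% among the long noncoding RNAs. NEAT1, the scaffold of paraspeckles, measured 11.82, 12.14 and 12.42 with EGF and 14.67 and 14.35 without and rose by 2.38 ± 0.19 (adjusted p = 1.14e-05). H19, an imprinted RNA, measured 8.68, 8.79 and 8.69 with EGF and 10.49 and 10.66 without and rose by 1.85 ± 0.15 (adjusted p = 1.22e-05). MEG3, another imprinted RNA, measured 9.89, 10.01 and 9.59 with EGF and 8.23 and 7.77 without and fell by 1.83 ± 0.19 (adjusted p = 3.06e-05). The groups were apart in all 3, with NEAT1 and H19 higher and MEG3 lower without EGF. SNHG1, a snoRNA host, fell by 1.42 ± 0.17 (adjusted p = 7.91e-05). Of 13 mitochondrially encoded mRNAs 4 were higher (1 without -EGF replicate A), or 30.8% against 24.7% of all genes tested.

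By contrast, 8827 genes were not called. Among the steadiest were YY1, a ubiquitous transcription factor, with 12.42, 12.37 and 12.44 with EGF and 12.33 and 12.34 without, and SEC31A, a coat protein of ER export, with 13.33, 13.31 and 13.31 with EGF and 13.29 and 13.23 without. Their differences were -0.07 ± 0.07 and -0.06 ± 0.07, and the gaps between the groups were a few hundredths of a log2 unit. The other steady genes included LRRC8D, TPP2, FBXO21, USP15, CLASP2 and TOR1AIP2.

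BRCA2, which the control siRNA does not target, measured 12.45, 12.13 and 12.48 with EGF and 11.44 and 11.65 without and fell by 0.81 ± 0.13 (adjusted p = 0.000444), a call that did not hold with replicates B and C alone (adjusted p = 0.0685). In the BRCA2 siRNA libraries BRCA2 measured 12.43, 12.37 and 12.4 with EGF and 12.48, 12.27 and 12.11 without. With EGF these values lay within the range of the control siRNA libraries, and without EGF they lay above them. The libraries of the BRCA2 siRNA thus show no lower BRCA2 RNA, and the reason was not tested. In the cells given the BRCA2 siRNA, EGF withdrawal changed 4873 genes, or 27.1%, against 50.8% with the control siRNA. The median absolute difference over all genes tested was 0.26 against 0.42. The interaction between EGF and siRNA was called in 595 genes (3.31%), 590 of them also called with the control siRNA, and in all 590 the difference was smaller with the BRCA2 siRNA. Choosing genes called with the control siRNA favours larger differences there, so this direction was partly set by the choice. HES1, outside the 590, differed by 0.11 with the control siRNA and by -0.47 with the BRCA2 siRNA. The interaction count of 595 ranged from 0 to 1607 as single libraries were left out: it was 0 without +EGF replicate A, -EGF replicate A or -EGF replicate C of the control siRNA or without +EGF replicate C of the BRCA2 siRNA, and 1607 without +EGF replicate C of the control siRNA. In these 4 fits, limma's unadjusted p was under 0.05 in 2686 to 3401 genes, against 3982 with all libraries. Leaving out another BRCA2 siRNA library gave 157 (+EGF replicate A), 426 (+EGF replicate B), 62 (-EGF replicate A), 1 (-EGF replicate B) or 1041 (-EGF replicate C). SCNN1G, a subunit of the epithelial sodium channel, measured 5.27, 5.28 and 5.51 with EGF and 6.85 and 7.11 without with the control siRNA and 5.06, 5.39 and 5.22 with EGF and 4.52, 4.78 and 4.69 without with the BRCA2 siRNA, where it differed by -0.56 ± 0.15. SMTN, a cytoskeletal protein of contractile cells, measured 13.41, 12.99 and 13.12 with EGF and 11.47 and 11.42 without and 13.28, 13.11 and 13.23 with EGF and 12.77, 12.65 and 12.59 without. SPRY4 measured 10.54, 10.68 and 10.21 with EGF and 10.28, 10.14 and 10.08 without with the BRCA2 siRNA. PPL measured 10.45, 10.73 and 10.77 with EGF and 11.37, 11.65 and 12.16 without there. SCNN1G was higher without EGF under the control siRNA and lower under the BRCA2 siRNA. The other 3 differed in the same direction under both siRNAs, by less under the BRCA2 siRNA. For SPRY4 the difference under the BRCA2 siRNA was -0.31 ± 0.14 and was not called (limma, adjusted p = 0.113). The interaction estimates were -2.19 ± 0.22 for SCNN1G, 1.19 ± 0.15 for SMTN, 1.59 ± 0.21 for SPRY4 and -1.89 ± 0.25 for PPL (limma, adjusted p = 0.0137, 0.0167, 0.0167 and 0.0167). The other 6 genes with the smallest interaction p were MARCHF4, POF1B, LINC02518, ACSS1, LPAR1 and NTM. Of these, LINC02518 and ACSS1 passed the expression filter only through the control siRNA libraries without EGF, where they were high. Their interaction therefore carries little weight.

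**Figure D4:**
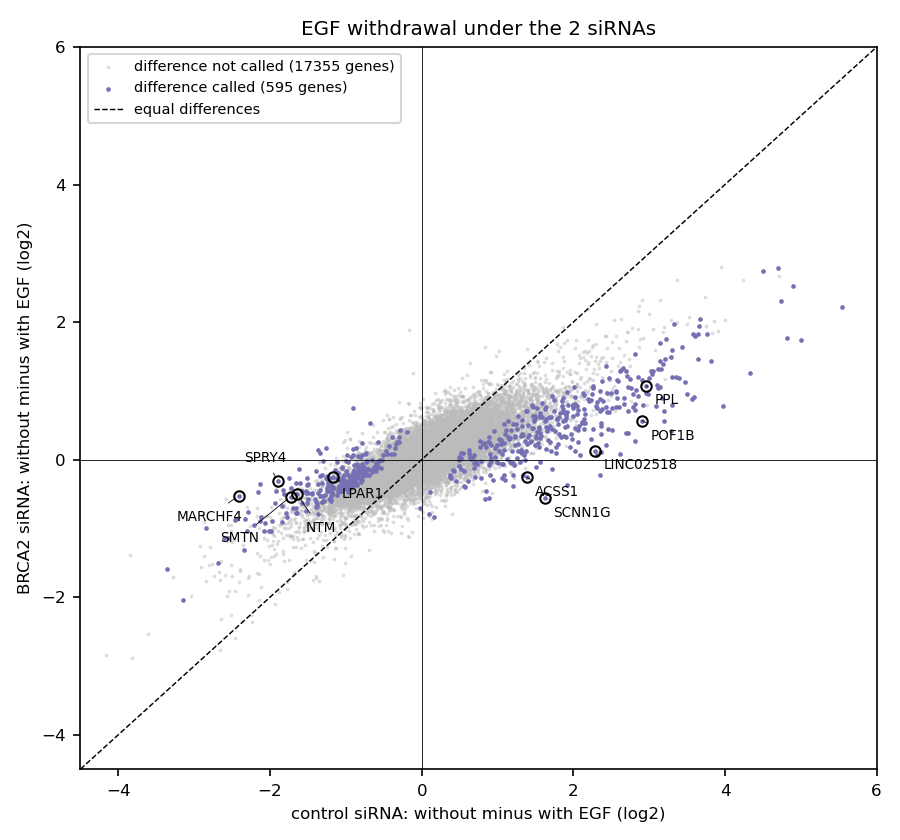
Log2 difference without EGF minus with EGF under the control siRNA (x axis) and under the BRCA2 siRNA (y axis) for the 17950 genes tested, with the 595 genes of the interaction marked. The median absolute difference was 0.42 on the x axis and 0.26 on the y axis.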

How the data were processed

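RNA-seq libraries from hTert-HME1 cells were compared between control siRNA with EGF (3 libraries) and without EGF (2), beside 6 BRCA2 siRNA libraries; groups came from the sample titles. The authors deposited 1 table of normalized log2 values per Ensembl gene. TopHat2 2.0.11, DESeq2, limma and hg19 are named (with no role or order) in the submitters' processing notes, whereas the sources used here do not give the counter, annotation or transform. Counts are not in the table, so the depth per library is unknown and no counting error is given. Symbols matched 30039 of 40460 IDs (74.2%), through RefSeq gene tables.

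From these values, limma 3.58.1 (R 4.3.3) was fitted to all 11 libraries in 4 groups, with a mean-variance trend, no pseudocount and 7 residual degrees of freedom. Genes with 3.32 or more in at least 2 libraries were kept, and p-values were two-sided and Benjamini-Hochberg adjusted over 17950 genes, with a threshold of 0.05. The script was tested on simulated data.

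Genes named are the 15 largest rises and falls called with non-overlapping groups and a higher-group mean above 8.85, members of 55 gene lists (values by library for at most 6 per list, the largest differences called), the 10 smallest interaction p, the 10 smallest SE among differences under 0.1 with a mean above 10, and BRCA2. Some genes that the rule names are not reported here. Members and lists were chosen with earlier results of these data known. The lists, 48 of them functional (mitosis, DNA replication, hair keratins and the others of the gene list plot, with suprabasal keratins) and 7 of cell type markers, hold 1229 genes, of which 1169 are in the table and 1016 were tested. Of 3 suprabasal and mucosal keratins tested 2 rose, of 4 hair keratins 1 rose and 1 fell, and of 4 melanocyte markers 1 rose. The suprabasal list has the limit of the cornified one, since KRT4 passed the filter only through its values without EGF. Without a filter 4 of its 13 members were higher, with a median of 0.05 against 0.98 over the 3. CD14 was the only leukocyte marker tested, and it rose. Marker lists were summed on the linear scale. Promoters were the RefSeq bases of GRCh38.p14. The alternatives tried are given in the closing section.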

Additional observations from a re-analysis of the deposited data

Results flagged for a closer look

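The response to EGF withdrawal differed between the siRNAs in 595 genes by limma's test of the interaction, a count that fell to 0 when any of 4 libraries was left out, as given in the report. The difference under the BRCA2 siRNA minus that under the control siRNA is given here, in log2 units, for the named genes past an adjusted p of 0.05. A negative value belongs to a gene that rose with the control siRNA and differed by less, or in the other direction, with the BRCA2 siRNA, and a positive value to one that fell.

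Of the rises among signalling and transcription factors, it was -2.10 for GRHL3, -1.87 for FOSB, -1.81 for FOS, -1.81 for FBXO32, -1.79 for NOTCH3, -1.77 for PIK3IP1, -1.59 for KLHL24, -1.58 for FOXO1 and -1.33 for MAF. Of the falls among signalling and transcription factors, it was 1.59 for SPRY4, 1.59 for ETV4, 1.47 for ETV5 and 1.31 for FOSL1. Of the rises among receptors and surface proteins, it was -3.32 for GPNMB, -3.26 for EPHB6, -2.49 for EPHB3, -2.19 for SCNN1G, -2.07 for FGFR2 and -2.07 for KDR. Of the falls among receptors and surface proteins, it was 1.89 for MARCHF4, 1.18 for STEAP1, 1.14 for NTM and 0.91 for LPAR1. Of the rises among genes of the cell cycle, ribosome assembly and metabolism, it was -1.75 for APOE and -1.65 for ACSS1. Of the falls among genes of the cell cycle, ribosome assembly and metabolism, it was 1.84 for BCAT1, 1.48 for HMGA1, 1.04 for CDC20, 0.95 for ATF4, 0.93 for CDC6, 0.93 for CDC45, 0.88 for AURKB, 0.81 for CENPA, 0.81 for FADS1, 0.66 for CCNB2, 0.64 for PFKP and 0.62 for PNO1. Of the rises among genes of keratins, junctions and the epidermal barrier, it was -3.07 for DSG1, -2.54 for KLK7, -2.42 for TRIM29, -2.37 for SERPINB13, -2.34 for SPRR1B, -2.34 for POF1B, -1.98 for KRT16, -1.94 for KRT15, -1.93 for CDH1, -1.89 for PPL, -1.79 for TGM1, -1.62 for DSG3, -0.96 for DSP, -0.95 for KRT6B, -0.76 for KRT8 and -0.73 for KRT6A. Of the rises among genes of the matrix, proteolysis and immunity, it was -1.82 for BGN, -1.75 for TIMP3, -1.74 for GBP2, -1.64 for MEGF6, -1.57 for IFI44L, -1.36 for C3, -1.28 for IFIT2, -1.24 for CTSF and -0.89 for CTSD. Of the falls among genes of the matrix, proteolysis and immunity, it was 0.85 for SERPINE2. Of the rises among the remaining genes, it was -2.16 for LINC02518, -1.71 for TSHZ2, -1.24 for NEAT1 and -1.08 for H19. LINC02518, like ACSS1 above, passed the expression filter only through the control siRNA libraries without EGF. Of the falls among the remaining genes, it was 1.77 for INSC, 1.39 for MEG3 and 1.19 for SMTN. HES1, which was not called with the control siRNA, had a value of -0.58. It differed by 0.11 with the control siRNA and by -0.47 with the BRCA2 siRNA.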

How the results depend on the processing

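The count of genes changed by EGF withdrawal, 9123, ranged from 6166 to 10024 when 1 control siRNA library was left out, and fell to 2074 with replicates B and C only, which left 3 residual degrees of freedom and 1 library without EGF. It was 9505 with no filter, 6429 with the stricter filter (11395 genes tested), 8166 after quantile normalization, 8435 with a term for replicate A, 8936 with no trend, 9083 with robust variances and 7670 with the control siRNA libraries alone. Only 6657 of the 8166 genes called after quantile normalization were shared with the 9123, so many calls depend on the normalization. Same-letter deviations of the control siRNA groups correlated at -0.29 for A and 0.03 for C. These cannot decide whether the letters pair, since the deposited values hold no average shift between A and the other letters. The deviations of the pair of libraries without EGF are also equal and opposite. The B libraries with EGF of both siRNAs correlated at 0.70, as did the C libraries, and the main fit held no term for the letter. With the replicate letter as a block, 8895 genes were called, 8482 of them shared with the 9123, the falls among DNA replication genes numbered 30 in place of 18, and the interaction count was 930. The interaction count of 595 was also 375 with no trend, 0 (990 at an unadjusted p under 0.05, by limma) with replicates B and C only, and between 0 and 1607 when 1 library was left out; the cause was not tested. Of the 655 named or listed genes called, 571 kept their call after quantile normalization, 268 with replicates B and C only, 640 with the block, and 509 to 634 when 1 control siRNA library was left out. CKAP2, a mitotic gene that fell by 0.24, was at 0.01 after quantile normalization, the only reversal among these genes and alternatives. The depth is unknown, so it could not be used to judge low values.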

Other observations

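The direction of change differed between kinds of gene in the GENCODE annotation. Of 12951 protein-coding genes tested 21.7% were higher and 32.6% lower without EGF (median difference -0.11). Of 1267 antisense genes 31.2% were higher and 6.39% lower, of 197 sense-intronic genes 44.7% and 2.03%, and of 926 processed pseudogenes 39.5% and 5.4%. Of 768 lincRNAs 26.8% were higher and 15.5% lower, while snoRNAs were even at 11.1% each way (117 genes). Whether reads were assigned by strand is not given in the sources used here, so antisense and sense-intronic values may hold reads of the genes they overlap, and those of processed pseudogenes reads of their parent genes.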
